A study of Mus musculus with 23 samples.

Results

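The genes described here encode potassium channels and their partner subunits, apart from the Kv3 channels. They were taken as every non-control probe whose gene name began with Kcn and a further letter, without the Kv3 genes Kcnc1 to Kcnc4 and without the antisense transcript Kcnq1ot1. This gave 127 probes for 90 genes, of 39429 probes and 31829 names on the array. A single probe stood for 59 of these genes and several probes for 31, with at most 5 for 1 gene.

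Gene expression was measured in whole brains, cerebrum and cerebellum together, of adult male mice at 19 weeks of age. The embryos came from in vitro fertilization with C57BL/6J eggs and sperm and were carried by ICR recipient mothers. In the control diet group (CD) the recipient mothers ate 20% casein, in the protein-restricted group (PR) 5% casein, and in the third group (FA) 5% casein with added folic acid. The folic acid content was 0.02% in the first and second diet and 0.1% in the FA diet, and the diets began 1 month before embryo transfer and ended at delivery. The newborns were raised by ICR foster mothers, whose diet the study describes in more than 1 way, and all offspring ate the control diet after weaning. The animals had been through behavioural tests before the brains were taken. Each group had 4 arrays, and how many litters they came from is not given in the sources used here, so p-values measure the spread between these samples. PR was compared with CD for the effect of the low protein diet, FA with CD for the same diet with folic acid, and FA with PR for the added folic acid.

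Potassium channels let potassium leave or enter the cell, set the resting potential and end the action potential. Voltage-gated subunits open on depolarization, inward rectifiers and tandem-pore channels work near rest, and other channels open when calcium or sodium rises in the cell. Silent subunits and auxiliary proteins do not form channels alone but change where channels go and how fast they open and close.

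The values are log2 of the normalized intensity of each probe, and a probe was counted as measured on an array where the scanner software marked it well above background. Of the 127 probes, 92 were measured on all 12 arrays, or 72.4%, against 60.2% of all probes on the array. At least 1 such probe was found for 73 of the 90 genes, 3 genes had no measured probe on any array, and 14 lay between. The 4 CD arrays had from 27068 to 28458 spots well above background, the PR arrays from 31266 to 33478 and the FA arrays from 30408 to 31672. The lowest log2 signal among probes well above background was 4.75 to 5.28 on the CD arrays, 3.23 to 3.82 on the PR arrays and 3.70 to 4.01 on the FA arrays. The CD arrays thus lost dim members sooner, and all 4 of them measured 92 member probes, against 106 on all 4 PR arrays and 104 on all 4 FA arrays. Every slide held the arrays of a single diet, so the slide and the diet cannot be told apart here.

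In PR, the Kv4 partner Kcnip2, the stretch-sensitive channel Kcnk2 and 1 of 2 probes each of the silent subunit Kcng2, the inward rectifier Kcnj14 and the large conductance partner Kcnmb4 were higher than in CD. The Kv2 subunit Kcnb2 and both probes of the small conductance channel gene Kcnn3 were lower, 1 of them by a call that several alternative fits lost. The largest of these differences were 1.75-fold for that Kcng2 probe (0.81 ± 0.14 log2 units, SE, n = 4 per group) and 1.74-fold for Kcnb2 (-0.80 ± 0.14), while the axonal genes Kcna1 and Kcna2 and the astrocyte channel Kcnj10 did not pass the test. In whole brain RNA, fewer cells of a type and less RNA per cell cannot be told apart.

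In PR, 18 of the 127 member probes were lower than in CD (14.2%) and 16 were higher (12.6%) at limma's adjusted p under 0.05. Of all probes on the array, 16.6% were lower and 13.4% were higher by the same rule. Either direction together took 34 members, or 26.8%, against 30% of all probes, and among the probes measured on all 12 arrays 24 of 92 members, or 26.1%, against 30.8%. The 4 PR values lay wholly above or below the 4 CD values in 37 members, or 29.1%, and in 33.2% of all probes. The shares of channel probes thus lay near those of the whole array, and the difference between them was not tested.

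In FA, the same genes were called in the same directions, Kcnn3 by only 1 of its probes. The Kcng2 probe was 1.77-fold higher (0.83 ± 0.14) and Kcnb2 1.8-fold lower (-0.85 ± 0.14). In both diets 1 of 2 probes of the Kv4 partner Kcnip3 was also higher and the G protein-gated channel Kcnj6 lower. The Kcnj6 call in PR was lost under 10 of 19 alternative fits. The tandem-pore channel Kcnk15 was higher in FA and 2 of 3 probes of the large conductance channel Kcnma1 lower. The comparisons share their CD arrays, so these calls are not independent. Of the members, 17 were lower than in CD (13.4%) and 19 were higher (15%), where 18% of all probes were lower and 16.4% were higher. Together these were 36 members, or 28.3%, against 34.4% of all probes. Among the probes measured on all 12 arrays, 28 of 92 members were called, or 30.4%, against 37%. The FA and CD values did not overlap in 33 members, or 26%, and in 36.9% of all probes.

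The median log2 difference over the members was -0.001 in PR and -0.009 in FA, beside -0.016 and -0.006 over all probes. Among the 92 members measured on all arrays the median size of the difference, whatever its sign, was 0.144 in PR and 0.159 in FA, and the same over 23753 probes was 0.147 and 0.166. In PR, 89 of the 92 differed by less than 0.5 log2 units from CD, and in FA 85 did. Higher calls made up 47.1% of the member calls in PR and 52.8% in FA, beside 44.7% and 47.6% of the calls over all probes. This split depended on the processing, with 58.5% and 54.5% higher under 75th percentile scaling (44.1% and 41.9% over all probes). It was 65.2% and 67.6% with normexp background correction and quantile normalization, where the split over all probes moved too, to 56.2% and 56.4%. With dim probes removed it was 53.1% and 58.3%, against 55.5% and 56.4% over all probes. No member passed the limits of the study's methods, a 2-fold difference at p under 0.0001, here applied to limma's adjusted p and not to the methods' own test, in PR (34 of all probes, 0.0862%) or in FA (77 probes, 0.195%). At an unadjusted p under 0.05 in limma, the values of 2 members, Kcne1 and Kcne3, were more than 2-fold higher in each diet, but no CD array measured them, so no such fold is supported. No member measured on all 12 arrays differed by 2-fold.

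**Figure D1:**
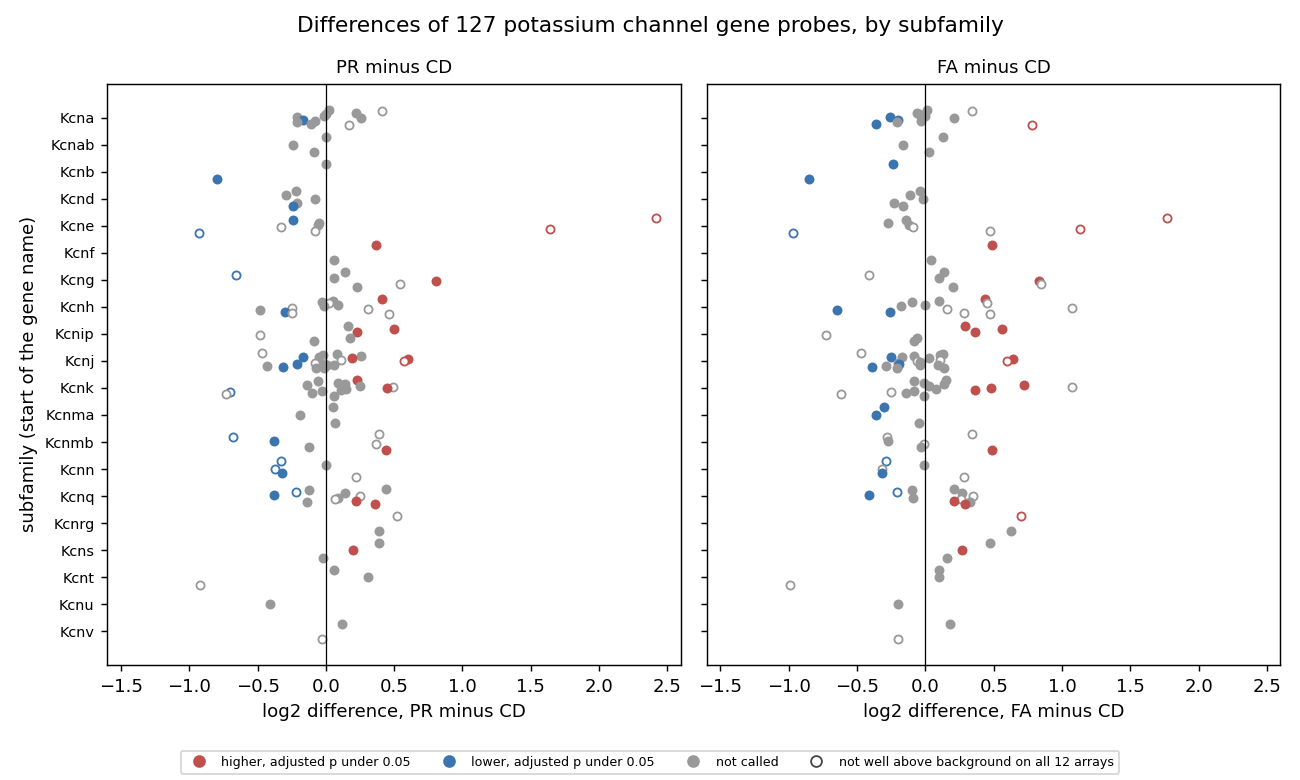
Log2 difference from CD (x axis, log2 units) of each of the 127 member probes, by subfamily (y axis), in PR (left) and FA (right); each point is 1 probe, the colour gives the call at adjusted p under 0.05, and open points were not well above background on all 12 arrays. The called probes lie on both sides of 0 in PR (18 lower, 16 higher) and in FA (17 lower, 19 higher).

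The voltage-gated pore subunits (Kcna, Kcnb, Kcnd, Kcnh and Kcnq) were 26 genes with 42 probes. In PR 3 of these probes were higher and 6 were lower, where 13.4% and 16.6% of all probes were. In FA 4 were higher and 9 were lower, where 16.4% and 18% of all probes were. Quantile normalization gave the same counts, 75th percentile scaling gave 6 and 6 in PR and 7 and 9 in FA, and normexp correction 3 and 4, and 6 and 6. Over all probes lower calls were likewise the more frequent in the values used here and higher calls with normexp correction, as given above.

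Kcnb2, a Kv2 delayed rectifier subunit of neurons, had the largest fall among members measured on all arrays. Its log2 intensity was 7.59, 7.66, 7.29 and 7.19 in CD, 6.81, 6.58, 6.65 and 6.50 in PR and 6.41, 6.87, 6.35 and 6.71 in FA. All PR and FA values were below all CD values, and PR and FA overlapped. The log2 difference ± SE was -0.80 ± 0.14 in PR, which is 1.74-fold lower (limma adjusted p = 0.00203), and -0.85 ± 0.14 in FA, 1.8-fold lower (adjusted p = 0.00119). With normexp correction the differences were smaller, -0.39 and -0.41, and were still called.

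The ether-à-go-go subunit Kcnh1 rose in both diets. It had 8.49, 8.56, 8.61 and 8.45 in CD, 8.96, 8.79, 8.94 and 9.05 in PR and 8.92, 8.98, 8.88 and 9.11 in FA. Every PR and FA value lay above every CD value. The difference was 0.41 ± 0.07 in PR (1.32-fold, adjusted p = 0.00162) and 0.44 ± 0.07 in FA (1.36-fold, adjusted p = 0.000775). Kcnh7, of the erg channels, had 6.61, 6.92, 6.88 and 6.39 in CD, 6.39, 6.75, 5.84 and 5.89 in PR and 6.10, 6.09, 5.78 and 6.22 in FA, and only FA lay wholly below CD. The FA difference was -0.65 ± 0.20 (adjusted p = 0.0305), a call lost without any one of CD replicates 2 and 3 and FA replicates 1, 2 and 3 (adjusted p up to 0.082). Kcnh8, of the elk channels, was lower by this test in both diets through its probe A_51_P173224, with -0.30 ± 0.09 in PR (adjusted p = 0.0268) and -0.26 ± 0.09 in FA (adjusted p = 0.0443). Of its other probes, A_55_P2147245 went the other way, by 0.46 in PR and 0.47 in FA. That probe was not called (adjusted p = 0.228 and 0.206) and was measured on 0 CD arrays and on all PR and FA arrays. Probe A_55_P2012679 was measured on no array. The PR call of Kcnh8 was lost without any one of CD replicates 1 and 4 and PR replicates 1 and 2 (adjusted p up to 0.0707) and with 75th percentile scaling, normexp background correction with quantile normalization and only the 2 groups in the model. Its FA call was lost without any one of CD replicates 1, 3 and 4, PR replicates 2 and 4 and FA replicates 1, 2 and 4 (adjusted p up to 0.111) and with 75th percentile scaling, normexp background correction with quantile normalization, a trended and robust variance and only the 2 groups in the model. For Kcnh2, which encodes the erg subunit known from the heart, the differences were 0.05 in PR and 0.10 in FA (adjusted p = 0.644 and 0.307). For Kcnq3, a subunit of a slow voltage-gated current that restrains repeated firing, they were 0.09 and -0.09 (adjusted p = 0.659 and 0.679).

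The Kv1 and Kv4 genes carry much of the axonal and dendritic potassium current. Kcna1, found along axons, had 14.33, 14.19, 14.16 and 14.19 in CD, 14.11, 14.31, 14.29 and 14.24 in PR and 14.20, 14.32, 14.09 and 14.31 in FA. The groups overlapped fully, with 0.02 ± 0.07 in PR and 0.01 ± 0.07 in FA (adjusted p = 0.867 and 0.898). Its axonal partner Kcna2 differed by 0.22 and -0.06 (adjusted p = 0.0792 and 0.655). Kcnd2, the Kv4 subunit of the A-type current in dendrites, differed by -0.08 and -0.02 (adjusted p = 0.404 and 0.844). Kcna6, Kcnd3 and Kcna5, of the same families, were picked after their values were seen. Kcna6 had 14.79, 14.85, 14.75 and 14.67 in CD, 14.60, 14.64, 14.59 and 14.54 in PR and 14.59, 14.54, 14.55 and 14.60 in FA by its probe A_52_P130787, with both diets wholly below CD. The difference was -0.17 ± 0.04 in PR and -0.20 ± 0.04 in FA (adjusted p = 0.0164 and 0.0071), while its other probes were not called. Kcnd3 was lower in PR through A_66_P122219, with -0.24 ± 0.06 (adjusted p = 0.012), and differed by -0.16 in FA (adjusted p = 0.0613). Kcna5 was lower in FA through A_52_P58283, with -0.26 ± 0.07 (adjusted p = 0.0173), a call lost with normexp correction, while A_55_P2106891 went the other way and was not called (0.21, adjusted p = 0.528). Kcna7, a Kv1 gene best known from muscle, was the gene whose probes were called in opposite directions. In FA its probe A_55_P2090142 was lower with -0.36 ± 0.10 (adjusted p = 0.0198) and A_66_P114700 was higher by 0.78 ± 0.11 (adjusted p = 0.000401), or by 0.28 with normexp correction. The lower call was lost without any one of CD replicates 1 and 2 and FA replicate 3 (adjusted p up to 0.055), and the higher probe was measured on 3 of 4 CD arrays and on every PR and FA array.

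The silent subunits (Kcnf, Kcng, Kcns and Kcnv), which join Kv2 subunits to change their gating, were 10 genes with 13 probes. In PR 3 probes were higher and 1 was lower, and in FA 3 were higher, where 13.4% of all probes were higher and 16.6% lower in PR, and 16.4% and 18% in FA. Under 75th percentile scaling 5 were higher in PR, and in FA 4 were higher and 1 was lower. Kcng2 had the largest rise among members measured on all arrays. Its probe A_66_P109002 had 10.55, 10.62, 11.02 and 10.68 in CD, 11.66, 11.46, 11.58 and 11.39 in PR and 11.79, 11.77, 11.23 and 11.38 in FA. No PR or FA value came as low as the highest CD value. The rise was 0.81 ± 0.14 in PR (1.75-fold, adjusted p = 0.00221) and 0.83 ± 0.14 in FA (1.77-fold, adjusted p = 0.00155). The second Kcng2 probe, A_55_P2005335, differed by 0.06 and 0.10 (adjusted p = 0.623 and 0.349).

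Kcnf1, another silent partner of Kv2, showed the same division between its probes. A_52_P203316 had 11.25, 11.21, 11.35 and 11.35 in CD, 11.74, 11.56, 11.52 and 11.80 in PR and 11.81, 11.71, 11.81 and 11.77 in FA. CD lay below both other groups, and the difference was 0.37 ± 0.07 in PR (1.29-fold, adjusted p = 0.00278) and 0.49 ± 0.07 in FA (1.4-fold, adjusted p = 0.000446). A_55_P2116536 differed by 0.06 and 0.04 (adjusted p = 0.591 and 0.714).

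The inward rectifiers (Kcnj) were 15 genes with 20 probes, of which 3 were higher and 3 lower in PR, and 2 higher and 3 lower in FA (all probes, 13.4% and 16.6% in PR, 16.4% and 18% in FA). With normexp correction 1 was higher in PR, and in FA 3 were higher and 2 lower, while 75th percentile scaling gave 2 and 4 in FA. Kcnj14, a strong rectifier of neurons, had 6.66, 6.75, 6.75 and 6.65 in CD, 7.17, 7.21, 7.46 and 7.37 in PR and 7.33, 7.22, 7.50 and 7.30 in FA by its probe A_51_P250559. The lowest PR and FA values were above the highest CD value. The rise was 0.60 ± 0.08 in PR (1.52-fold, adjusted p = 0.000304) and 0.64 ± 0.08 in FA (1.55-fold, adjusted p = 0.00019), and 0.37 in each with normexp correction. The other Kcnj14 probe, A_55_P1955522, was measured on 5 of 12 arrays and was not called. Kcnj6, a subunit of the channels that G proteins open after receptor activation, had 6.62, 7.05, 7.03 and 6.76 in CD, 6.67, 6.56, 6.49 and 6.50 in PR and 6.36, 6.57, 6.42 and 6.54 in FA. FA lay wholly below CD and PR overlapped with it. The difference was -0.39 ± 0.10 in FA (1.31-fold lower, adjusted p = 0.0109) and -0.31 ± 0.10 in PR (adjusted p = 0.035). Among the alternative fits the smallest FA difference was -0.17, still called, and the smallest PR difference was -0.09. The PR call was lost without any one of CD replicates 2 and 3 and PR replicates 2, 3 and 4 (adjusted p up to 0.0908) and with 75th percentile scaling, quantile normalization, normexp background correction with quantile normalization and only the 2 groups in the model.

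Kcnj3, which joins Kcnj6 in the same channels, was lower through A_52_P560006, with -0.21 ± 0.06 in PR (adjusted p = 0.0206) and -0.19 ± 0.06 in FA (adjusted p = 0.0257). These calls were lost without any one of CD replicate 2 and PR replicates 3 and 4 in PR (adjusted p up to 0.0545) and of CD replicates 2 and 4 and FA replicates 1 and 3 in FA (adjusted p up to 0.0717). They were also lost with 75th percentile scaling and normexp correction, and in FA with only the 2 groups in the model. The other Kcnj3 probe differed by 0.06 and -0.04. Kcnj10, the main potassium channel of astrocytes, had 14.92, 14.83, 14.83 and 14.69 in CD, 14.91, 14.90, 14.90 and 14.90 in PR and 14.93, 14.84, 14.98 and 15.03 in FA. The groups overlapped, with differences of 0.08 and 0.13 (adjusted p = 0.303 and 0.113). Kcnj11, the pore of ATP-sensitive channels, differed by -0.02 and 0.11 in its probe A_52_P402705 and by 0.26 and -0.08 in A_55_P1961477, with no adjusted p below 0.207.

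Kcnj13 and the auxiliary gene Kcne2 are known from the choroid plexus epithelium, which makes cerebrospinal fluid. The Kcnj13 probe A_55_P2081050 had 10.86, 10.81, 10.92 and 10.95 in CD, 11.14, 11.03, 11.10 and 11.01 in PR and 10.96, 10.77, 11.05 and 10.86 in FA. PR lay above CD by 0.19 ± 0.06 (adjusted p = 0.0459), and FA overlapped with both. That call was lost without any one of CD replicates 1, 2 and 3, PR replicates 1, 2, 3 and 4 and FA replicates 1 and 4 (adjusted p up to 0.11) and with normexp background correction with quantile normalization. The other Kcnj13 probe differed by -0.05 in PR and -0.17 in FA, and Kcne2 by -0.06 and -0.12 (adjusted p = 0.661 and 0.39). All 7 probes of 5 choroid plexus marker genes were measured on every array, and 0 were called in either comparison by limma. Ttr was the brightest probe of that list, and the summed log2 level of the list was 16.29 to 16.40 in CD, 16.23 to 16.42 in PR and 16.08 to 16.31 in FA.

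The tandem-pore channels (Kcnk), which carry the background potassium current, were 14 genes with 15 probes. In PR 2 were higher and 1 was lower, and in FA 3 were higher, or 5 higher and 1 lower with normexp correction. For all probes the shares were 13.4% and 16.6% in PR and 16.4% and 18% in FA, and 56.4% of the FA calls were higher with normexp correction. Kcnk2, a channel opened by membrane stretch and lipids, had 6.92, 6.77, 7.23 and 7.10 in CD, 7.64, 7.26, 7.40 and 7.52 in PR and 7.55, 7.28, 7.56 and 7.55 in FA. Its PR and FA values were all above CD. The rise was 0.45 ± 0.11 in PR (1.37-fold, adjusted p = 0.0137) and 0.48 ± 0.11 in FA (1.4-fold, adjusted p = 0.00877). Among the alternative fits the smallest rise was 0.24 in PR and 0.25 in FA, still called. Kcnk1, a weakly rectifying channel of neurons and astrocytes, was higher in PR by 0.23 ± 0.06 (adjusted p = 0.0184) with overlapping groups, and its call was lost without PR replicate 4 (adjusted p = 0.0526). In FA it differed by 0.15 (adjusted p = 0.087). Kcnk3, an acid-sensitive channel, differed by 0.15 and 0.08 (adjusted p = 0.199 and 0.468). Kcnk4, a mechanically gated channel that was picked after its values were seen, was higher in FA through A_55_P2095498, by 0.36 ± 0.05 (adjusted p = 0.000416), while A_55_P2122220 differed by -0.08 (adjusted p = 0.165).

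Kcnk15, a relative of the acid-sensitive channels, was called higher in FA than in CD and in PR. It had 6.88, 6.41, 6.49 and 6.92 in CD, 6.71, 6.44, 6.47 and 6.51 in PR and 7.67, 7.35, 7.56 and 6.99 in FA. FA lay wholly above CD and PR, which overlapped. The difference from CD was 0.72 ± 0.16 in FA (1.64-fold, adjusted p = 0.00629) and -0.14 in PR (adjusted p = 0.535). With normexp correction the difference of FA from CD was 0.35, still called. The limma call against PR (0.86 ± 0.16, adjusted p = 0.0487) was lost under 15 of 19 alternative fits.

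The channels opened by calcium or sodium (Kcnma, Kcnn and Kcnt) and Kcnu, grouped with them here, were 8 genes with 12 probes. Of these probes 3 were lower in PR and 4 in FA (16.6% and 18% of all probes), in each case with the Kcnn1 probe that no array measured. With normexp correction 1 was higher and 2 were lower in FA. Kcnma1, the pore of the large conductance channel, had 13.47, 13.52, 13.51 and 13.44 in CD, 13.32, 13.35, 13.23 and 13.30 in PR and 13.14, 13.15, 12.91 and 13.31 in FA by its probe A_55_P2071656. FA and PR both lay below CD, with -0.36 ± 0.07 in FA (1.28-fold lower, adjusted p = 0.00345) and with -0.19 ± 0.07 in PR (adjusted p = 0.0758, not called). The PR difference passed the test with 75th percentile scaling, with normexp correction, with only the 2 groups in the model and without FA replicate 3 or 4, and FA did not differ from PR (-0.17, adjusted p = 0.313). A second probe, A_51_P187352, was lower in FA with -0.30 ± 0.10 (adjusted p = 0.0325), a call lost without any one of CD replicates 1, 2 and 3 and FA replicates 2 and 3 (adjusted p up to 0.0878) and with normexp background correction with quantile normalization. The third probe, A_55_P2378486, differed by -0.05 in FA (adjusted p = 0.602).

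Kcnn1, Kcnn2 and Kcnn3 encode small conductance channels that slow firing after an action potential. The Kcnn3 probe A_55_P1997554 had 7.89, 7.84, 7.93 and 7.76 in CD, 7.43, 7.69, 7.57 and 7.46 in PR and 7.73, 7.51, 7.46 and 7.41 in FA. Both diets lay below CD, with -0.32 ± 0.08 in PR (1.24-fold lower, adjusted p = 0.0136) and -0.32 ± 0.08 in FA (1.25-fold lower, adjusted p = 0.01). The other Kcnn3 probe was measured on 3 of 4 CD arrays and differed by -0.37 in PR (adjusted p = 0.0408) and -0.32 in FA (adjusted p = 0.0591). Its PR call was lost without any one of CD replicates 2 and 4, PR replicates 1, 2, 3 and 4 and FA replicate 3 (adjusted p up to 0.1) and with 75th percentile scaling, normexp background correction with quantile normalization and a trended and robust variance. Kcnn2 had 11.96, 11.71, 11.83 and 11.91 in CD, 11.75, 11.86, 11.83 and 11.97 in PR and 11.89, 11.78, 11.80 and 11.91 in FA. The Kcnn2 groups overlapped, with differences of 0.00 ± 0.07 and -0.01 ± 0.07 (adjusted p = 0.987 and 0.94). The Kcnn1 probe was called lower in both diets but was not well above background on any array, so no fold is given. Kcnt1, a sodium-activated channel, differed by 0.06 and 0.10 (adjusted p = 0.429 and 0.221).

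The auxiliary genes (Kcnab, Kcne, Kcnip, Kcnmb and Kcnrg) were 17 genes with 25 probes, of which 5 were higher and 4 lower in PR, and 7 higher and 1 lower in FA, beside 13.4% and 16.6% of all probes in PR and 16.4% and 18% in FA. Under 75th percentile scaling the counts were 7 and 5, and 8 and 2, and with normexp correction 6 and 1 in each. Kcnip2, a calcium-binding partner that brings Kv4 channels to the membrane, had 8.78, 8.90, 8.86 and 8.67 in CD, 9.49, 9.25, 9.12 and 9.34 in PR and 9.37, 9.38, 9.38 and 9.32 in FA. CD lay below the other groups. The rise was 0.50 ± 0.08 in PR (1.41-fold, adjusted p = 0.0011) and 0.56 ± 0.08 in FA (1.48-fold, adjusted p = 0.000452). Kcnip3, of the same family and also known as a transcriptional repressor, had 14.83, 14.70, 14.66 and 14.80 in CD, 14.98, 15.02, 14.93 and 14.97 in PR and 15.11, 15.16, 15.07 and 15.09 in FA by its probe A_55_P2108988. The 3 groups did not overlap, with CD lowest and FA highest. The rise over CD was 0.23 ± 0.05 in PR (1.17-fold, adjusted p = 0.00454) and 0.36 ± 0.05 in FA (1.28-fold, adjusted p = 0.000286), and FA exceeded PR by 0.13 (adjusted p = 0.237, not called). The PR call was lost under 75th percentile scaling. The other Kcnip3 probe, A_55_P2371237, was measured on 2 of 4 CD arrays and differed by -0.48 and -0.73 (adjusted p = 0.484 and 0.269).

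Kcnmb4, the brain subunit that slows the large conductance channel, gave the lowest adjusted p of the list in both comparisons with CD. Its probe A_55_P2161353 had 9.97, 9.98, 10.01 and 10.19 in CD, 10.48, 10.44, 10.53 and 10.48 in PR and 10.51, 10.56, 10.51 and 10.53 in FA. The highest CD value was well under the lowest PR and FA values. The rise was 0.44 ± 0.05 in PR (1.36-fold, adjusted p = 0.000174) and 0.49 ± 0.05 in FA (1.4-fold, adjusted p = 9.79e-05). The other probe, A_55_P2090330, had 13.64, 13.54, 13.50 and 13.47 in CD, 13.38, 13.45, 13.48 and 13.37 in PR and 13.49, 13.66, 13.40 and 13.50 in FA. Those groups overlapped, with -0.12 in PR and -0.03 in FA (adjusted p = 0.161 and 0.777). Kcnmb2, which makes the same channel inactivate, was lower in PR with -0.38 ± 0.10 (adjusted p = 0.0178) with overlapping groups. Kcnab2, a cytoplasmic partner of Kv1 channels, differed by -0.24 and -0.16 (adjusted p = 0.0856 and 0.226).

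**Figure D2:**
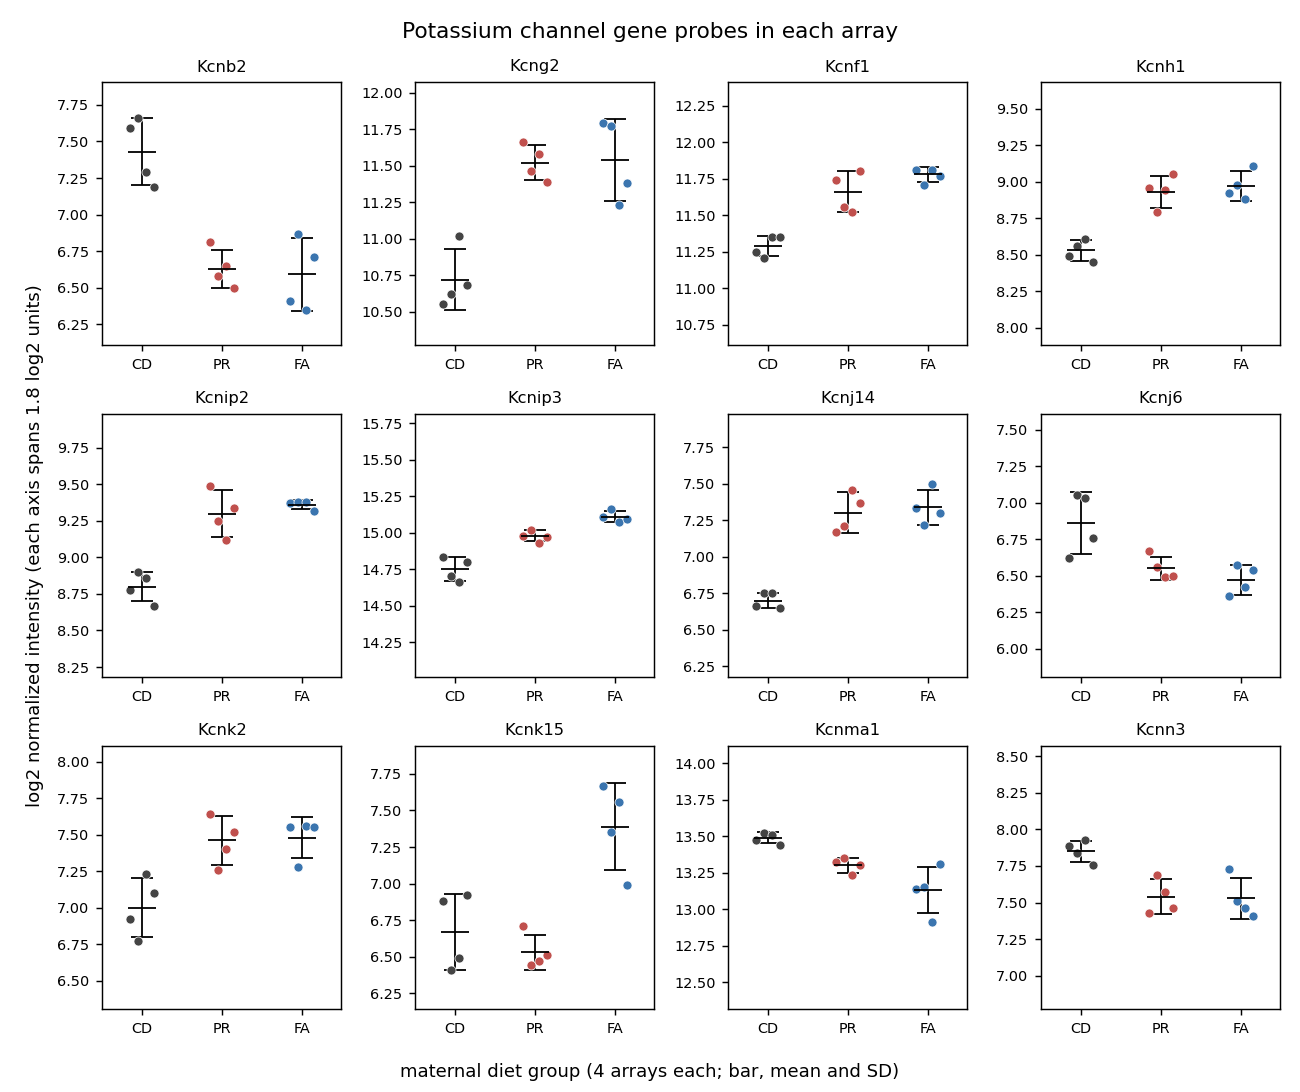
Log2 normalized intensity (y axis) of 12 member probes in the 4 arrays of each diet group (x axis); points are arrays, bars are the mean and SD, and each y axis spans 1.8 log2 units. For Kcnb2 all PR and FA points lie below the CD points, and for Kcng2, Kcnj14 and Kcnip2 they lie above them.

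In many genes with several probes only some of the probes were called. Of 16 member genes with more than 1 probe well above background on all 12 arrays, 10 had some but not all probes called in PR, 6 had none called and 0 had all called. The counts in FA were also 10, 6 and 0. The differences of a gene's probes had unlike signs in 10 of the 16 genes in PR and in 6 in FA. Over all 4052 genes of the array with several such probes, 44.3% had some called in PR and 11.4% had all called, and in FA the shares were 47.2% and 16.2%. The 2 probes of Kcnmb4 lie at chr10:115910498-115910557 and chr10:115854977-115855036 on the minus strand of mouse build mm9, both annotated to the transcript that the array lists for Kcnmb4. The probes of Kcnk4 lie at chr19:7007194-7007253 and chr19:7000280-7000339, and those of Kcnf1 at chr12:17179527-17179586 and chr12:17181507-17181566, all on the minus strand. Which exon or untranslated region each probe matches was not analysed here.

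The first 30 of the 60 bases of these probes follow, 5′ to 3′ as the array's files give them, because the called and the uncalled probe of a gene read different stretches of it. No base is singled out, so none is in capitals.
Kcnmb4 A_55_P2161353: ttacgagtacacggaagccgaagacaagag
Kcnmb4 A_55_P2090330: ccctcaaagaagtcggttttctttggaaag
Kcnk4 A_55_P2095498: agaccagtttctgagggaccatccctgtgt
Kcnk4 A_55_P2122220: ggttgccaaatgccaccgctcttccctggc
Kcnf1 A_52_P203316: atactcagagatccaaagtatctttttgct
Kcnf1 A_55_P2116536: ttcattcccctgctgacagaggagaagcat

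**Figure D3:**
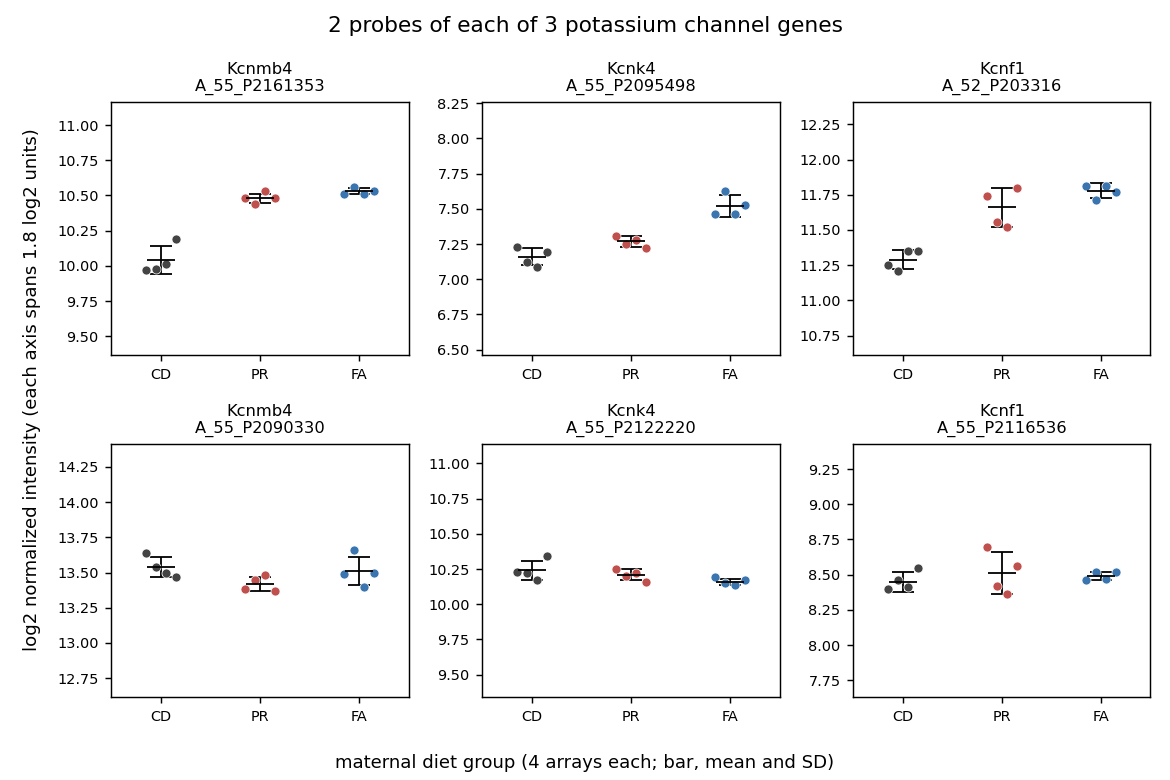
Log2 normalized intensity (y axis, spanning 1.8 log2 units in each panel) of 2 probes (upper and lower row) of Kcnmb4, Kcnk4 and Kcnf1 in the 4 arrays of each diet group (x axis); points are arrays and bars are the mean and SD. In each column the upper probe was called in FA against CD at adjusted p under 0.05 and the lower probe was not.

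Some members were well above background in only 1 group of a comparison. In PR against CD this held for 15 probes that no CD array measured and 1 that no PR array measured, and in FA against CD for 13 and 2. A fold for such probes is a lower bound, set against the lowest signal among probes well above background on each array. Kcne3, a subunit that modifies several voltage-gated channels, was picked after its values were seen and had 3.94, 3.81, 4.26 and 3.81 in CD, 5.65, 4.73, 5.73 and 6.27 in PR and 5.04, 5.44, 4.95 and 4.89 in FA by its probe A_55_P2108708. No CD array and every PR and FA array measured it, and it was at least 1.49-fold higher in PR (adjusted p = 0.00153) and at least 1.04-fold higher in FA (adjusted p = 0.00949). Its FA call was lost with normexp correction. The other Kcne3 probe, A_51_P336599, went the other way in PR, wholly below CD with -0.33 (adjusted p = 0.0802, not called), and differed by -0.09 in FA, and it was measured on 1 CD array and on all PR and FA arrays. Kcne1, the partner of Kcnq1 in the heart and ear, was also picked after its values were seen and had 2.28, 2.26, 2.25 and 2.35 in CD, 4.14, 6.17, 5.21 and 3.30 in PR and 3.55, 4.30, 4.12 and 4.24 in FA. It was measured on 0 CD arrays, 4 PR arrays and 3 FA arrays, but its PR and FA means did not exceed the CD limit, so no fold is given. Probe A_55_P2007761 of Kcnmb2 shows the reverse, with a mean of 4.89 ± 0.22 (SD, n = 4) in CD, where 0 arrays measured it, and 4.21 ± 0.16 in PR, where all 4 did. In each of the comparisons with CD, 3 called members were above background on no array of either group, among them the Kcnn1 probe and the Kcne4 probe A_55_P1990535, the last picked after its values were seen.

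FA and PR differed little over these genes. With limma 0 members were lower in FA than in PR, where 0.386% of all probes were, and 2 members were higher, or 1.57%, where 0.228% of all probes were. At an unadjusted p under 0.05 in limma, 7 members were lower and 9 higher, beside 6.1% and 8.03% of all probes, and the methods' Tukey test called 0 and 0. No probe on the array passed the 2-fold limit at limma's adjusted p under 0.0001 (0%). The median difference of the members was 0.003, against 0.017 over all probes. The members called were Kcnk15, higher in FA by 0.86 ± 0.16 (adjusted p = 0.0487), and Kcna7 through A_66_P114700, higher by 0.61 ± 0.11 (adjusted p = 0.0438). The Kcna7 probe had 5.53, 5.53, 5.64 and 5.76 in PR and 6.45, 6.11, 6.22 and 6.11 in FA, which do not overlap. The Kcnk15 call was lost without any one of CD replicates 1, 2 and 3, PR replicates 1, 2, 3 and 4 and FA replicates 1, 2 and 3 (adjusted p up to 0.12) and with 75th percentile scaling, quantile normalization, normexp background correction with quantile normalization and only the 2 groups in the model. The Kcna7 call was lost without any one of CD replicates 1, 2 and 3, PR replicates 1, 2, 3 and 4 and FA replicates 1, 2, 3 and 4 (adjusted p up to 0.105) and with 75th percentile scaling and only the 2 groups in the model. The count of 2 thus fell to 0 or 1 without any single array except CD replicate 4.

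The Kv3 genes are set beside the list only for 1 value: Kcnc2 had a mean of 10.16 ± 0.09 (SD, n = 4) in CD, 11.50 ± 0.12 in PR and 11.40 ± 0.04 in FA, a difference of 1.34 and 1.24 (adjusted p = 2.6e-05 and 2.01e-05). Of 17 genes whose products bind, cluster or modulate potassium channels or form the related HCN channels, 25 probes were on the array. In PR 2 of these were higher and 3 lower, and in FA 2 were higher and 10 lower, with a median difference of -0.08 in each. Of all probes on the array 13.4% were higher and 16.6% lower in PR, and 16.4% and 18% in FA. A lower probe in each comparison, A_55_P2005290 of Hcn4, was above background on 0 of the 12 arrays and its calls were lost with normexp correction. Both probes of Lgi1, a secreted protein that acts on Kv1 channels, were higher in both diets, by 0.23 and 0.25 in PR and 0.28 and 0.23 in FA. In FA the call of A_52_P609695 was lost without CD replicate 3 or FA replicate 4 (adjusted p up to 0.0531). All 3 probes of Ank3, a scaffold that holds ion channels at the axon initial segment, were lower in FA, with -0.41, -0.44 and -0.34 (adjusted p = 0.00356, 0.0169 and 0.00107). Dlg4, which clusters Kv1 channels, was lower with -0.37 in FA (adjusted p = 0.00418). Hcn4, Lgi1, Ank3 and Dlg4 were picked from the list after their values were seen.

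Marker genes were read for the make-up of the tissue. Of 5 neuron genes 3 had a probe, and all 3 probes were measured on every array, as were all 7 astrocyte, 6 oligodendrocyte, 6 microglia, 3 endothelium and 5 cerebellum probes. The counts of higher and lower probes in PR were 1 and 1 for neurons, 3 and 1 for astrocytes, 2 and 1 for oligodendrocytes, 2 and 2 for microglia, 1 and 0 for endothelium and 0 and 1 for cerebellum. In FA they were 1 and 0, 2 and 2, 1 and 1, 2 and 2, 1 and 1, and 0 and 2. Of all probes 13.4% were higher and 16.6% lower in PR, and 16.4% and 18% in FA. Gfap of astrocytes and Cx3cr1 of microglia were picked after their values were seen. In PR 2 Gfap probes were higher, by 0.43 and 0.57, and another was not called (0.15). For Cx3cr1, 1 probe was higher, by 0.62, and the other was not called (-0.24). Of the other astrocyte probes called in PR, Gja1 was higher by 0.3 and 1 Aqp4 probe was lower (-0.21). Of the other microglia probes called, 1 of Csf1r was higher by 0.29, and Aif1 (-0.37) and another of Csf1r (-0.3) were lower. The Gja1, Aqp4 and lower Csf1r calls were each lost without some single arrays. In FA those 2 Gfap probes were higher, by 0.32 and 0.48, and both Aqp4 probes lower, with -0.44 and -0.35. Blood and skeletal muscle lists, each of 3 probes, had 0 called in either comparison by limma, with a brightest probe of Hba-a1 and Acta1. The summed log2 level of the muscle list was 9.29, 9.37, 9.30 and 10.54 in CD, 9.16, 9.23, 9.33 and 9.33 in PR and 10.67, 9.65, 9.49 and 9.54 in FA. Every FA value thus lay above every PR value, and FA and CD overlapped. Acta1 had 9.10, 9.18, 9.05 and 10.47 in CD, 9.05, 9.03, 9.19 and 9.22 in PR and 9.83, 9.49, 9.38 and 9.39 in FA, Myh4 was 9.28 in FA replicate 1 and 5.17 to 6.24 on the other arrays, and Ckm was measured on 2 FA arrays only. The Kcna7 probe A_66_P114700 was also highest in FA replicate 1. Without that array its limma difference was 0.7 in FA against CD (adjusted p = 0.00118) and 0.53 in FA against PR (adjusted p = 0.0663). The part of muscle tissue in the values of this Kcna7 probe was not tested.

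In the pituitary list, Gh had 7.84, 8.37, 7.73 and 7.82 in CD, 2.24, 2.27, 3.10 and 2.84 in PR and 2.58, 2.27, 2.26 and 6.16 in FA, and was measured on 4, 0 and 1 arrays. Prl had 7.89, 7.84, 7.98 and 7.91 in CD, 3.83, 3.09, 3.83 and 2.65 in PR and 2.41, 2.47, 2.39 and 7.35 in FA, and was measured on 4, 0 and 1. Both were far lower on every PR array and on all FA arrays but replicate 4, and both were called lower in each comparison with CD. Pomc differed by -0.52 and -0.42 and Cga by -0.79 and -1.62, none of them called. The summed log2 level of the list was 14.10, 14.49, 14.25 and 14.45 in CD, 14.20, 13.75, 13.87 and 14.62 in PR and 14.19, 13.97, 14.18 and 14.18 in FA. A single Pou1f1 probe, the brightest of the list, made up most of this sum, which therefore does not show the hormone genes, and the other Pou1f1 probe was above background on 0 arrays. Any part of pituitary tissue in the channel values was not tested.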

How the data were processed

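The values are the linear intensities of the deposited table, which the authors made from 1-colour Agilent scans by Feature Extraction 11.0.1.1 (per the file headers) and normalized by the qspline method of the affy package. Their log2, with no pseudocount, was fitted for 39429 non-control probes with limma 3.58.1 in R 4.3.3 (lmFit and eBayes, the 3 diet groups together, 4 arrays each). P values were adjusted by Benjamini-Hochberg over all probes of each comparison, and a call is an adjusted p under 0.05. The samples were grouped by diet from the deposited labels, and replicate numbers were taken only as names. A probe with several spots counted as measured on an array where a share of at least 0.5 of its spots were marked well above background.

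Apart from genes that the report says were picked after their values were seen, the genes named were, by a rule, the 6 largest rises and the 6 largest falls of each comparison among called members measured on all arrays of both groups, any member past the methods' limits, genes with probes called in opposite directions, the choroid plexus channel genes Kcnj13 and Kcne2, and a fixed set of brain channel genes whatever their values. The results of 2 member genes are not reported here, except within counts over the list. The members, the related genes and the marker lists were chosen with earlier results of these data known. Nothing here gives evidence that arrays of a group came from separate litters.

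Alternatives were 75th percentile scaling, quantile normalization, normexp background correction with quantile normalization, removal of dim probes, a trended and robust variance, a fit of only the 2 groups compared, the methods' Tukey test and limits, counting genes, and leaving out each array. Python 3.11.15 with numpy 2.4.6, pandas 2.3.3 and matplotlib 3.10.9 made tables and figures. The methylation arrays of the study and the protein sequences of the channels were not analysed here.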

Additional observations from a re-analysis of the deposited data

Results flagged for a closer look

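Dixon's test for 1 array far from the other 3 of its group (the gap as a share of the range) was met in 5 of 114 groups of 4 values, from 38 probes, where about 1 in 20 would be met by chance. The Kcna7 probe A_55_P2090142 was 9.38 in CD replicate 3 and 9.80 to 9.85 in the other CD arrays (share of the gap 0.888). Kcnab2 was 7.28 in PR replicate 3 and 7.41 to 7.43 in the others (0.91). Kcnip2 was 9.32 in FA replicate 4 and 9.37 to 9.38 in the others (0.838). Kcnk2 was 7.28 in FA replicate 2 and 7.55 to 7.56 in the others (0.964). Kcnq3 was 8.27 in PR replicate 1 and 7.73 to 7.78 in the others (0.91). The flags fell on 5 different arrays. For Kcnab2 and Kcnip2 the other 3 values lay so close together that a small gap met the limit. Whether a spot defect or the animal set the Kcna7, Kcnk2 and Kcnq3 values apart was not tested.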

How the results depend on the processing

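Of 67 calls of named and reported member probes, 35 were kept under every alternative fit with limma, 31 were lost under at least 1 and 1 reversed. Among these fits the smallest FA difference was -0.33 for Kcnh7 and 0.21 for Kcnk4 A_55_P2095498. The smallest PR difference of Kcnmb2 A_55_P2112524 was -0.22. The count of members lower in PR (18) was 8 with normexp correction and 11 with the Tukey test, and that in FA (17) was 20 with 75th percentile scaling, 12 with normexp correction and 10 with the Tukey test. Members higher in PR (16) became 24 with 75th percentile scaling and 11 with the Tukey test. Those higher in FA (19) became 24 with 75th percentile scaling, 25 with normexp correction and 15 with the Tukey test. Over all probes the share called in either direction was 30% in PR and 34.4% in FA. This share moved too, to 36.9% and 39.6% with 75th percentile scaling and to 21.2% and 28.3% with normexp correction. All 4 counts against CD were 0 under the methods' limits applied to limma's adjusted p, by the stricter limit itself. The 2 members higher in FA than in PR became 0 with 75th percentile scaling, 1 with quantile normalization, 1 with normexp correction, 3 with dim probes removed, 2 with a trended and robust variance, and 0 with only the 2 groups fitted, with the Tukey test and with the limits. The median difference in PR, -0.001, was 0.022 with 75th percentile scaling. Under normexp correction Kcnn1, below background on every array, reversed to 0.01 in FA, and the cause was not tested for any of these. Leaving out each array in turn gave 13 to 20 members lower and 11 to 17 higher in PR, 12 to 17 lower and 17 to 22 higher in FA, and 0 lower and 0 to 2 higher in FA against PR. The median in PR was then between -0.014 (without CD replicate 4) and 0.028 (without CD replicate 1), that in FA between -0.02 and 0.019, and that of FA against PR between -0.001 and 0.023. Signal over background limits the dim members, most of all on the CD arrays.

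With the replicate number as a replicate block, 14 members were lower and 15 higher in PR, 15 and 20 in FA, and 0 and 0 in FA against PR. Arrays of the same number correlated at -0.06 to 0.104 (PR and CD), -0.063 to 0.196 (FA and CD) and 0.013 to 0.103 (FA and PR) after group means were removed, and 2, 3 and 6 of 8 arrays correlated best with their own number, so not every array did and the numbers were not used as pairs.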
